A study of Danio rerio with 4 samples.

Results

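The cytosolic ribosomal protein genes of zebrafish embryos were compared between nexn+/+ and nexn−/− embryos at 72 h post fertilization (hpf). They were chosen by name: rpl or rps followed by a digit, rplp followed by a digit, and rpsa, without the rps6k kinases. This gave 84 of 32057 genes in the deposited tables, 48 with large subunit and 36 with small subunit names. All 84 had enough counts to be tested. The rule goes by symbol and in lower case. It therefore also took in rps19bp1, whose human counterpart binds ribosomal protein S19 and is not itself a ribosomal protein, and rpl7l1, whose yeast relative Rlp7 is an assembly factor of the large subunit. It left out RPL37A, written in capitals, and the ribosomal components faua, faub and rack1, which are described apart. The name rpl37 belongs to 2 genes, which are told apart by their identifiers.

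Each library held pooled RNA of 25 whole embryos, with 2 libraries of nexn+/+ (labelled WT) and 2 of nexn−/− embryos. The nexn−/− line carries a CRISPR/Cas9 deletion in exon 2 of nexn, the gene of the Z-disc protein nexilin, and is a single line without a transgene or a driver. The embryos came from crosses among nexn+/+ adults and among nexn−/− adults, kept apart but descended from a common heterozygous pair, so genotype and parents cannot be told apart. In total 19413597 to 21956272 estimated counts were assigned to genes per library.

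The ribosome translates mRNA into protein. Its small subunit holds the mRNA and decodes it, and its large subunit joins the amino acids and releases the growing chain through a tunnel. Each subunit is built of ribosomal RNA and of many proteins, most of them present in a single copy per ribosome, and the vertebrate mRNAs of these proteins begin with a pyrimidine tract through which their translation is controlled together. Growing embryos make ribosomes at a high rate, and human mutations in single ribosomal protein genes cause Diamond-Blackfan anaemia, a failure of red cell production.

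The targeted gene nexn was counted 1700 and 1496 times in nexn+/+ and 895 and 1165 times in nexn−/− embryos, a log2(FC) of −0.91. Of 14 markers of skeletal muscle, heart, neurons, skin, lens, erythrocytes and photoreceptors, 14 were detected, the lowest being the heart gene myl7 at 1.76 TPM (transcripts scaled to a fixed total per library, after division by length). By genotype, 7 of the 14 were higher (all tested genes 43.8%) and 5 lower (20.9%) in nexn−/− embryos without overlap in TPM, and 2 overlapped. The embryonic globin gene hbbe1.1 was at 853 and 737 TPM in nexn+/+ and at 2838 and 2594 in nexn−/− libraries, myl7 at 3.86 and 1.76 against 46.5 and 38.1, and the skin keratin krt4 at 5963 and 5010 against 8995 and 9023. The photoreceptor gene opn1lw2 lay at 1690 and 2606 against 1094 and 1107 TPM and the neuronal gene elavl3 at 133 and 167 against 104 and 82.9. The nexn+/+ libraries also differed from each other, since 57 genes of muscle myosins, tropomyosins and troponins took 7.69% of the counts in replicate 1 and 4.06% in replicate 2, against 5.39% and 5.70% in nexn−/− embryos. The part of these differences in the results on ribosomal protein genes was not tested, and in whole embryos fewer cells of a type and less RNA per cell cannot be told apart.

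Taken as a whole, the ribosomal protein genes held a smaller share of the counts in nexn−/− embryos. The 48 large subunit genes took 5.08% and 5.11% of all counts in nexn+/+ and 4.39% and 4.74% in nexn−/− embryos. For the 36 small subunit genes the shares were 3.58% and 3.67% against 3.06% and 3.31%. For either subunit the nexn−/− pair thus lay wholly below the nexn+/+ pair, with the lowest value in nexn−/− replicate 1. The difference was −0.532 percentage points for the large and −0.439 for the small subunit (p = 0.33 each, two-sided exact permutation test). With 2 libraries a group, 0.33 is the smallest p that this test can give. Without the counts of the muscle genes in the total, all 84 genes together took 9.39% and 9.15% against 7.88% and 8.53%, again without overlap.

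**Figure D1:**
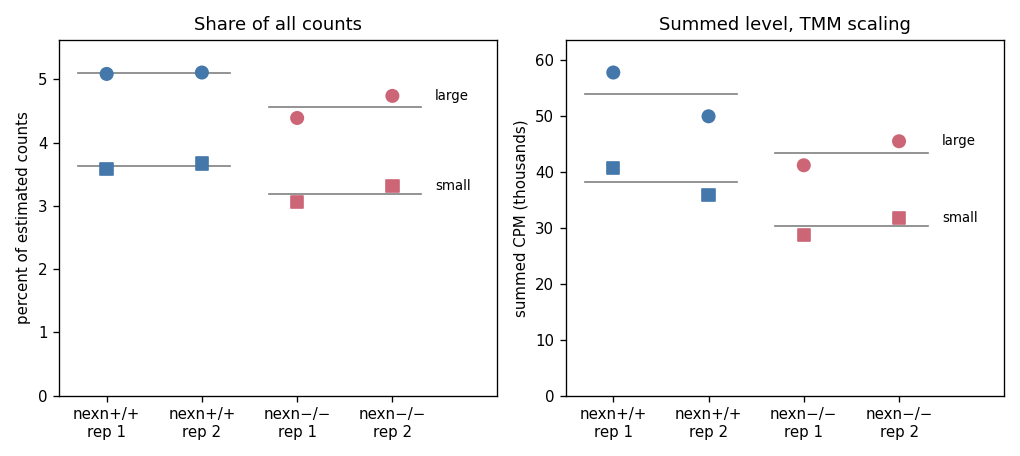
Summed level of the ribosomal protein genes in each library, for the large (circles) and the small subunit (squares), as percent of all estimated counts (left) and as summed CPM after TMM scaling (right); grey lines are the means of 2 libraries. The nexn−/− pair lies wholly below the nexn+/+ pair, and the nexn+/+ replicates are almost level as percent of counts (5.08 and 5.11 for the large subunit) but apart after TMM scaling.

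The 2 subunits were then set against each other. Summed TPM of the large over the small subunit genes gave ratios of 1.29 and 1.27 in nexn+/+ and 1.29 and 1.29 in nexn−/− libraries, so the groups overlapped (difference of log2 ratios 0.009, p = 1, two-sided exact permutation test). By counts the ratios were 1.42 and 1.39 against 1.43 and 1.43, without overlap (difference of log2 ratios 0.027, p = 0.33, two-sided exact permutation test). In TPM, which divides by gene length, the 84 genes together made up 21.8% and 23.3% of all transcripts in nexn+/+ and 19.6% and 20.2% in nexn−/− libraries. Mitochondrial ribosomal protein genes, whose products serve the separate ribosome of the mitochondrion, took 0.200% and 0.197% of counts in nexn+/+ and 0.214% and 0.226% in nexn−/− libraries (p = 0.33, two-sided exact permutation test), but their summed CPM after TMM scaling overlapped, at 2271 and 1928 against 2012 and 2173. Of these 74 genes, 41 had a log2(FC) below 0 under TMM, against 48.5% of all tested genes.

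Gene by gene, differences were tested under 2 scalings: TMM, which sets the libraries by the bulk of their genes, and library size alone. A gene was called at an adjusted p under 0.05 and a log2(FC) beyond 0.5, with log2(FC) always nexn−/− against nexn+/+. Under TMM, 8 of the 84 genes were called lower, 4 of the large and 4 of the small subunit, where 13.9% of all 20312 tested genes were called lower. By edgeR's quasi-likelihood test 0 were called higher, against 16.7% of all genes, with 1 higher at an unadjusted p under 0.05, against 23.4%. DESeq2 and limma-voom also called 0 higher, against 14.4% and 17.6% of all genes. The called share of the ribosomal protein genes was therefore not above that of all genes. Their directions were nearly uniform, however. Of 84 genes, 83 had a log2(FC) below 0, against 48.5% of all tested genes, and 1 above 0, against 51.5%, while 34 were lower at an unadjusted p under 0.05, against 23.0%. The median log2(FC) was −0.33 for the large subunit, with a range from −0.83 to 0.43, and −0.33 for the small subunit, with a range from −0.65 to −0.14. The median of all tested genes was 0.02. Standard errors of single genes lay between 0.105 and 0.20. They were computed back from the test, as the absolute log2(FC) over the square root of its F statistic.

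The scaling set how far the members lay from 0, but not how far they lay from the median of all genes. With library size alone, the median was −0.18 for the large and −0.18 for the small subunit, where all tested genes had a median of 0.17, so that the scaling shifted all genes by 0.147. Relative to that median the members lay at −0.35 under TMM and at −0.35 with library size alone, but at −0.20 with a minimum mean of 10 CPM, and between −0.45 and −0.27 with a library left out. With library size alone, 77 of 84 members were below 0 (all genes 38.9%) and 7 above (61.1%), 1 was called lower (rplp2, all genes 9.25%) and 1 higher (rpl7l1, all genes 21.7%). Genes called higher made up 54.5% of all calls under TMM and 70.2% with library size alone.

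The number of calls also rested on single libraries. Without nexn+/+ replicate 2, 16 large and 12 small subunit genes were called lower (all genes 15.8%), and without nexn+/+ replicate 1, 1 and 2 were (all genes 17.6%). Without nexn−/− replicate 1 or replicate 2, 0 and 0 were called by edgeR's quasi-likelihood test, but in either of these fits only 4 genes were called in the whole table. The median of all members was −0.24 without nexn+/+ replicate 1 and −0.42 without replicate 2. Nexn+/+ replicate 1 lay above replicate 2 for 81 of 84 members after TMM scaling, but for 36 of 84 with library size alone. The libraries of nexn−/− embryos differed in one direction as well, with replicate 1 below replicate 2 for 79 members under TMM and for 70 with library size alone.

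**Figure D2:**
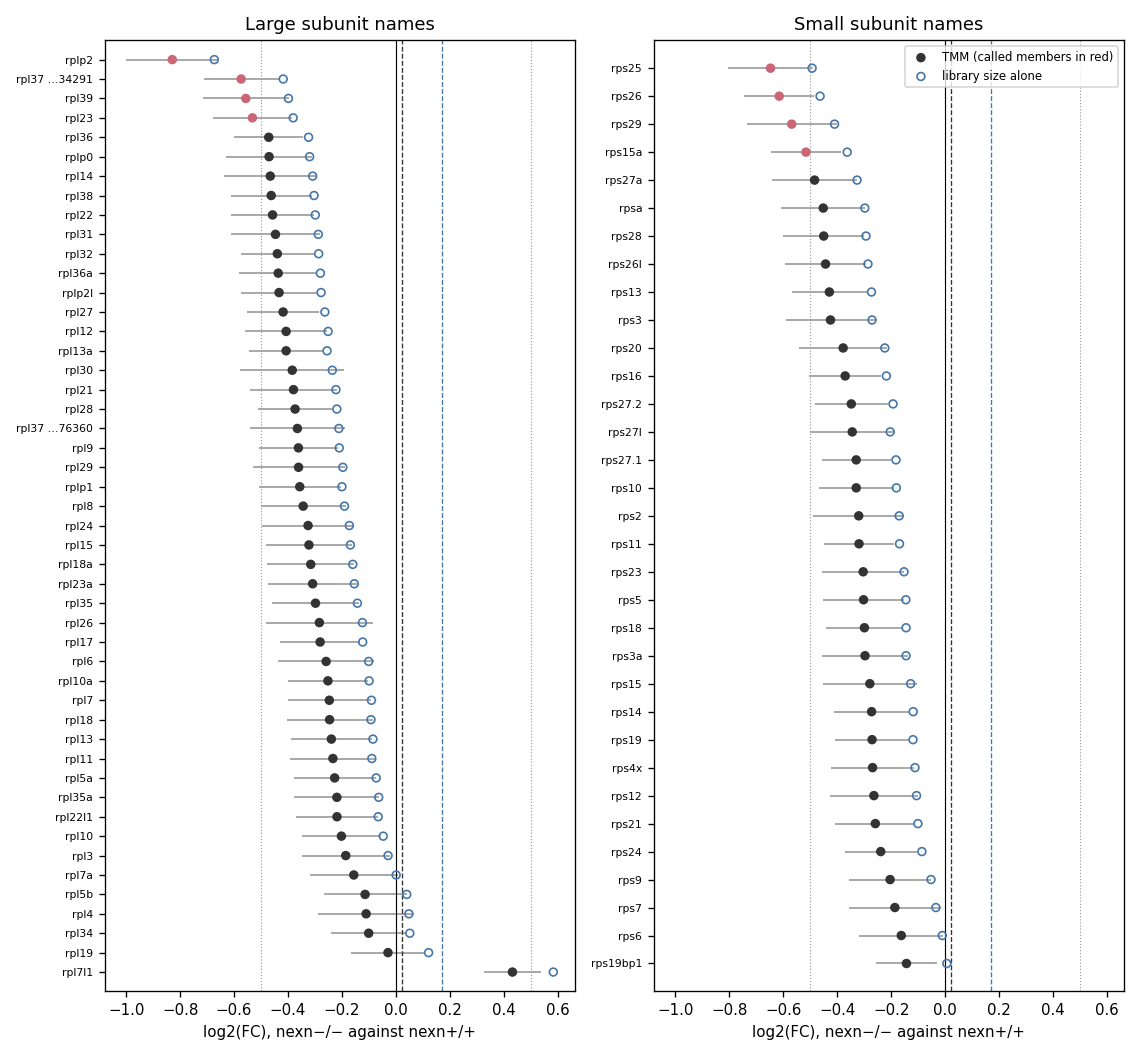
log2(FC) of 81 ribosomal protein genes, large subunit left and small subunit right, under TMM (filled, bars are the standard error, called genes in red) and with library size alone (open); dashed lines mark the median of all tested genes under either scaling and dotted lines the limits of 0.5. Under TMM 80 of the 81 points lie below 0, rplp2 lies lowest at −0.83, and rpl7l1 is the only one above 0.

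Whether the groups of libraries overlapped was read for each gene from CPM, counts scaled to a fixed total per library and then by TMM. The nexn−/− pair lay wholly below the nexn+/+ pair for 72 of the 84 genes, 38 of the large and 34 of the small subunit, against 34.4% of all tested genes. A single gene, rpl7l1, lay above (all genes 36.4%). The groups overlapped for 11 genes: rpl4, rpl5b, rpl6, rpl7a, rpl19, rpl22l1, rpl26, rpl34, rpl35a, rps6 and rps7. In CPM by library size alone, 64 genes lay lower without overlap (all genes 23.3%) and 2 higher, rpl19 and rpl7l1 (all genes 43.5%). In TPM, 60 lay lower (all genes 20.9%) and 3 higher (all genes 43.8%). Here and below, these shares are over tested genes of all levels. The shares without overlap among other genes at the level of the members were not read.

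The 4 called genes of the large subunit were rplp2, rpl37, rpl39 and rpl23. The acidic stalk protein encoded by rplp2 helps to dock elongation factors on the ribosome. Its CPM was 567 and 467 in nexn+/+ and 255 and 327 in nexn−/− libraries (log2(FC) −0.83, standard error 0.171, adjusted p = 0.0112). It lay lowest of all members and was called with library size alone as well (−0.67, adjusted p = 0.0107). The zinc-binding core protein gene rpl37 (ENSDARG00000034291) was at 746 and 643 CPM against 484 and 449 (log2(FC) −0.57, standard error 0.139, adjusted p = 0.0196). For rpl39, a small protein that lines the exit tunnel, CPM was 774 and 623 against 444 and 506 (log2(FC) −0.56, standard error 0.158, adjusted p = 0.0342). The interface protein gene rpl23 was at 1141 and 1040 CPM against 698 and 810 (log2(FC) −0.53, standard error 0.148, adjusted p = 0.0314). In each of these 4 genes the groups were separate. With library size alone rpl37, rpl39 and rpl23 were not called, with log2(FC) values of −0.42, −0.40 and −0.38 and adjusted p-values of 0.0637, 0.0786 and 0.0913.

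The 4 called genes of the small subunit were rps25, rps26, rps29 and rps15a. The head protein encoded by rps25 is needed in human and yeast cells for initiation from some viral internal entry sites. Its CPM was 1138 and 979 in nexn+/+ and 616 and 736 in nexn−/− libraries (log2(FC) −0.65, standard error 0.159, adjusted p = 0.0207). With library size alone the adjusted p was 0.0359, but the log2(FC) of −0.49 stayed inside the limit. The protein of rps26 lies at the mRNA exit channel. It was at 350 and 318 CPM against 203 and 233 (log2(FC) −0.61, standard error 0.13, adjusted p = 0.0121). With library size alone its log2(FC) was −0.46 (adjusted p = 0.0457). The zinc-binding head protein gene rps29, the shortest member by effective length, was at 529 and 416 CPM against 290 and 348 (log2(FC) −0.57, standard error 0.166, adjusted p = 0.0374). For rps15a CPM was 619 and 554 against 400 and 420 (log2(FC) −0.52, standard error 0.129, adjusted p = 0.0223). In all 4 genes the groups were again separate. With library size alone rps29 (−0.41, adjusted p = 0.0795) and rps15a (−0.36, adjusted p = 0.0994) missed both limits. A further 2 large subunit genes, singled out after their values were seen, rpl36 (−0.47, adjusted p = 0.0288) and rpl32 (−0.44, adjusted p = 0.0455), passed the p limit under TMM but not the fold limit. With them 10 members had an adjusted p under 0.05 on the lower side, against 17.3% of all genes, and 1 on the higher side, against 17.8%.

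**Figure D3:**
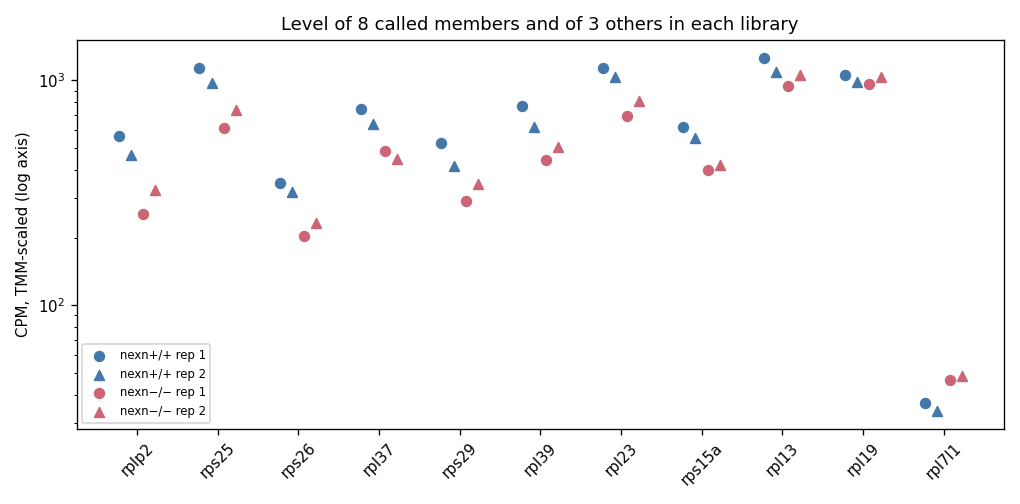
CPM after TMM scaling (log axis) of the 8 called ribosomal protein genes, of rpl13, rpl19 and rpl7l1 in each library, with nexn+/+ in blue and nexn−/− in red, replicate 1 as circles and replicate 2 as triangles. In the 8 called genes both red points lie below both blue points, for rpl19 they overlap, and for rpl7l1 they lie above.

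A single member stood on the other side, rpl7l1, whose yeast relative is an assembly factor of the large subunit. For rpl7l1 CPM was 36.8 and 33.8 in nexn+/+ and 46.6 and 48.6 in nexn−/− libraries, without overlap. Its log2(FC) was 0.43 under TMM, inside the fold limit (standard error 0.105, adjusted p = 0.0201), and 0.58 with library size alone, where it was called (adjusted p = 0.0147). It was also among the lowest members in level, at a mean of 61.4 TPM. The gene nearest to 0 was rpl19, which forms a bridge to the small subunit, at 1053 and 981 CPM against 960 and 1033 (log2(FC) −0.03, standard error 0.138, adjusted p = 0.892). The reference gene of the study's qPCR, rpl13, was at 1261 and 1094 CPM against 942 and 1053. Its groups did not overlap, and its log2(FC) was −0.24 under TMM (standard error 0.151, adjusted p = 0.259) and −0.09 with library size alone (adjusted p = 0.719).

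The genes were then compared by the place of their proteins in the ribosome. All 4 stalk genes lay lower without overlap, as did 72 of the 84 members and 34.4% of all genes, with a median log2(FC) of −0.45. Beside rplp2 these were rplp0, the base of the stalk, at 4365 and 4135 CPM against 3056 and 3081 (−0.47, adjusted p = 0.0592), rplp2l (−0.43, adjusted p = 0.0547) and rplp1 (−0.36, adjusted p = 0.114). The genes of the particle around 5S ribosomal RNA had a median of −0.23. Of these, rpl11 was at 1171 and 1201 CPM against 902 and 1116 (−0.23, adjusted p = 0.290), rpl5a at −0.23 (adjusted p = 0.285) and rpl5b at −0.11 (adjusted p = 0.601), with overlap for rpl5b. The 4 genes whose proteins reach towards the peptidyl transferase centre and the upper tunnel, rpl3, rpl4, rpl8 and rpl10, had a median of −0.19 and a range from −0.34 to −0.11. The 7 genes around the tunnel exit, where rpl39 was called, ranged from −0.56 to −0.03 with a median of −0.30.

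On the small subunit, 5 genes listed together for the mRNA path and decoding (rps2, rps3, rps14, rps15 and rps23) all lay lower without overlap. So did 34 of the 36 small subunit genes and 34.4% of all genes. Their log2(FC) values lay between −0.42 and −0.27, with a median of −0.30. By edgeR's quasi-likelihood test 0 of the 5 were called, where 13.9% of all genes were called lower and 16.7% higher. The S6 kinase substrate rps6 was at 1782 and 1607 CPM against 1412 and 1616, so its groups overlapped (−0.16, adjusted p = 0.454). For rpsa, also known as the laminin receptor, CPM was 2690 and 2359 against 1808 and 1885 (−0.45, adjusted p = 0.0629). The ubiquitin fusion gene rps27a was at 2046 and 1703 CPM against 1349 and 1333 (−0.48, adjusted p = 0.0533). Of 17 zebrafish genes whose human counterparts are mutated in Diamond-Blackfan anaemia, 17 had a log2(FC) below 0 (all genes 48.5%), 13 lay lower without overlap (all genes 34.4%) and 2 were called lower, rps26 and rps29 (all genes 13.9%). Their median was −0.28, and these shares were near those of the members as a whole. The gene of this group mutated most often in patients, rps19, was at 852 and 773 CPM against 638 and 709 (−0.27, adjusted p = 0.172).

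Scaled to the summed counts of the members themselves, a choice made after the data were seen, the differences within the group can be read. This scale sets the members' sum equal in all libraries, so a median near 0, with genes on either side, follows from it. The median was then −0.01 for either subunit, 28 genes lay lower (all genes 15.3%) and 23 higher (all genes 53.8%) without overlap, and 2 genes were called: rplp2 lower (−0.51, adjusted p = 0.0345, all genes called lower 6.03%) and rpl7l1 higher (0.76, adjusted p = 0.00369, all genes called higher 28.9%). Relative to the sum of the ribosomal protein genes rps25 (−0.33, adjusted p = 0.147) and rps26 (−0.29, adjusted p = 0.204) were no longer past either limit.

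The members are among the most abundant mRNAs, and log2(FC) varied with level across all genes. When all tested genes were divided into 10 classes of equal size by mean CPM, 79 of the 84 members fell into the highest class, from 77.2 CPM upwards. The 1953 other genes of this class had a median log2(FC) of −0.26 under TMM and −0.12 with library size alone, 70.1% of them were below 0, and 30.2% were called lower. In the lowest class the median was 0.49. The members' median of −0.33 was thus 0.35 below that of all genes but nearer to that of the other genes in the highest class. The share of members called lower was below that of these genes. However, 83 of the 84 members lay below 0, against 70.1% of the other genes in the class. The class is open upwards from 77.2 CPM, and level within it was not matched.

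**Figure D4:**
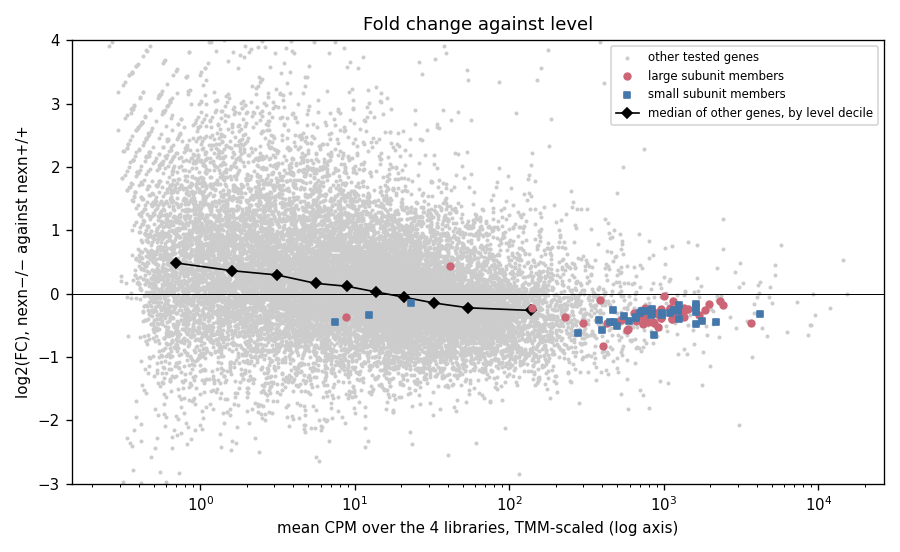
log2(FC) under TMM against mean CPM (log axis) for all tested genes, with the large (red circles) and small subunit genes (blue squares) and the median of the other genes in each of 10 level classes (black); 5 members stand apart at lower level. The black line falls from 0.49 to −0.26 with level, and most members have a log2(FC) below that of its right end. The line ends at the median level of the other genes in the highest class, which was not matched to the level of the members.

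The log2(FC) of the members also varied with length. Effective length, the part of a transcript in which a fragment can start, was computed from counts and FPKM. The 28 shortest members (95.5 to 317 nucleotides) had a median log2(FC) of −0.40 and held 7 of the 8 called genes. The 28 of middle length had a median of −0.32 and 1 called gene, rpl23, and the 28 longest (548 to 3272 nucleotides) had a median of −0.28 and 0 called by edgeR's quasi-likelihood test. Of all tested genes 13.9% were called lower, and the called share of other genes in these length ranges was not read. With effective length in each library as an offset the medians of the members were −0.42, −0.35 and −0.30. Across the 84 genes, which are not independent and share libraries and depth, Pearson's r between log2(FC) and log2 effective length was 0.299 and Spearman's rho 0.276. Among other genes of at least 100 CPM the medians in the same length ranges were −0.29 (21 genes), −0.17 (63 genes) and −0.24 (953 genes). The part of fragment length in these differences was not tested.

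**Figure D5:**
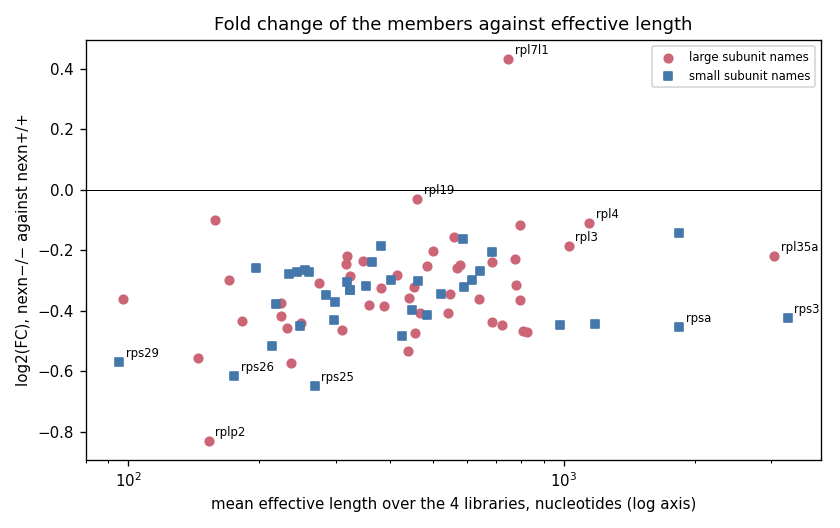
log2(FC) under TMM of each ribosomal protein gene against its mean effective length in nucleotides (log axis), large subunit as red circles and small subunit as blue squares. The shortest genes reach lowest (rplp2 at −0.83, rps26 at −0.61), and the genes over 548 nucleotides lie between −0.47 and −0.11 apart from rpl7l1 at 0.43.

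Levels were compared between genes in TPM. The median over the 84 genes was 2583 TPM, with 2622 for the large and 2569 for the small subunit, and 74 genes were at 1000 TPM or more. The highest was rps2, at 7662 and 8534 TPM in nexn+/+ and 7084 and 7441 in nexn−/− libraries, well above the next. Behind it came rps12 (4992 ± 280, SD over 4 libraries), rplp0 (4825 ± 651), rps29 (4478 ± 754) and rpl39 (4406 ± 654), whose ranges of mean ± SD overlapped. This SD spans both genotypes and does not measure whether genes differ within a library, which was not tested. At the other end 5 genes were under 100 TPM, among them rpl7l1, rps27l (25.8 ± 4.15), rps19bp1 (13.7 ± 0.782) and the second rpl37 gene (ENSDARG00000076360, 12.1 ± 0.744). The neighbours rpl35a (271 TPM) and rps3 (583 TPM) have effective lengths of 3041 and 3272 nucleotides in these tables, far above those of most members, which lowers their TPM for the same counts.

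Pairs of like-named copies were compared by the share of each copy in their summed TPM, which needs no scaling between libraries. Near-identical copies can share reads, so these splits are less certain than the sums. The share of rplp2 in rplp2 and rplp2l was 45.2% and 44.9% in nexn+/+ but 36.2% and 40.3% in nexn−/− libraries, a difference of −6.81 percentage points. The share of rpl22 over rpl22l1, which can replace it, was 82.6% and 81.4% against 79.5% and 78.9%. For rpl5a over rpl5b the shares were 55.6% and 55.9% against 54.1% and 53.5%, and for rps26 over rps26l 79.3% and 81.9% against 79.0% and 78.0%. By counts rps26 held only 36.9% and 39.3% against 35.1% and 35.4%. The effective length of rps26l is 1180 nucleotides, against 175 for rps26, which lowers its TPM for the same counts. The share of rpl7l1 in rpl7 and rpl7l1 was 1.68% and 1.80% against 2.75% and 2.74%. In the pair of rpl37 genes, ENSDARG00000034291 held 99.57% and 99.60% against 99.53% and 99.47%. Of 8 sets of copies compared, the groups did not overlap in these 6, each with p = 0.33, the smallest that the two-sided exact permutation test allows here. In the other 2 sets, among them the copies of rps27, they overlapped. By the TPM of single genes, 20.9% of all tested genes lay lower and 43.8% higher without overlap. Shares within pairs of other genes were not read, so these splits are not set apart from the general rate.

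The ribosomal components outside the name rule were read in the same fit. The gene faua, a fusion of a ubiquitin-like protein with a small subunit protein, was called lower, at 621 and 511 CPM against 339 and 385 (log2(FC) −0.65, adjusted p = 0.0171). Its log2(FC) was −0.49, inside the fold limit, with library size alone (adjusted p = 0.0355). Its copy faub was called higher (1.08, adjusted p = 0.0292), but at only 5.04 and 2.82 CPM against 7.85 and 8.75. The head protein gene rack1 was not called (−0.25, adjusted p = 0.250). RPL37A was called lower under TMM (−0.58, adjusted p = 0.0434) but not with library size alone (−0.42, adjusted p = 0.0736).

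The genes that build the ribosome lay mostly on the other side. Of 79 ribosome biogenesis genes, 64 had a log2(FC) above 0 (all genes 51.5%), with a median of 0.17 under TMM and 0.32 with library size alone. Under TMM 5 were called higher (all genes 16.7%) and 3 lower (all genes 13.9%), and with library size alone 14 higher (all genes 21.7%) and 0 lower (all genes 9.25%) by edgeR's quasi-likelihood test. These shares of calls were below those of all genes. The summed CPM of the 79 genes after TMM scaling overlapped, at 3486 and 3117 in nexn+/+ against 3360 and 3586 in nexn−/− libraries. Those called higher under TMM were pes, needed for large subunit rRNA processing, at 42.0 and 35.4 CPM against 60.6 and 61.8 (0.66, adjusted p = 0.00696), imp3 of the small subunit processome (0.66, adjusted p = 0.0235), grwd1 (0.65, adjusted p = 0.0116), rpf2, which brings in the 5S particle (0.55, adjusted p = 0.0351), and the nucleolar chaperone npm1a (0.55, adjusted p = 0.0171). Those called lower were rrp7a (−0.59, adjusted p = 0.0208), the RNA polymerase I factor ubtf (−0.57, adjusted p = 0.0131) and sbds, which helps to free eIF6 from the new large subunit (−0.56, adjusted p = 0.0129).

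A further list held 20 tested genes with elongation factor names or counted among pyrimidine tract mRNAs in mammals. The tract itself was not checked for any of them. Of the 20, 1 was called higher, npm1a, which is also in the biogenesis list (all genes 16.7%). Called lower were 2 (all genes 13.9%), eef1a1a (−0.88, adjusted p = 0.00177) and eef1a1l2 (−0.64, adjusted p = 0.0154). The median of the 20 was 0.01. The call of eef1a1l2 was lost with library size alone (−0.49, adjusted p = 0.0797), which left 1 called lower (all genes 9.25%). With that scaling 2 were called higher (all genes 21.7%), npm1a and tpt1 (0.55, adjusted p = 0.0209). Under TMM tpt1 was at 1883 and 1911 CPM against 2460 and 2547 and was not called (0.40, adjusted p = 0.0753). The most abundant of the 20, eef1a1l1, was at 10128 and 8482 CPM against 8819 and 9692, with overlap (−0.01, adjusted p = 0.981). Of 58 initiation factors 0 were called higher (all genes 16.7%) and 4 lower (all genes 13.9%) by edgeR's quasi-likelihood test, with a median of −0.05. These were eif5b, which joins the subunits (−0.87, adjusted p = 0.00394), eif4g3a (−0.78), eif3hb (−0.56) and eif1, which guards start codon choice (−0.53). Of these, eif3hb (−0.42, adjusted p = 0.105) and eif1 (−0.37, adjusted p = 0.0932) were not called with library size alone.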

How the data were processed

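Per the labels and the study's methods, RNA of whole zebrafish embryos was sequenced by a service provider. STAR, RSEM and GRCz11 are named in the submitters' processing notes, and their versions and the annotation are not given in the sources used here. The authors deposited gene-level estimated counts without normalization (92.1% to 93.3% of values above 0 were whole). The authors also deposited TPM, scaled to length and library, and FPKM, used here with counts for effective lengths. The column headings of the 4 tables carry the name of 1 library although their values differ, so each table's library was taken from its deposition record.

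Counts were rounded and tested with edgeR 4.0.16 in R 4.3.3 (filterByExpr, TMM, quasi-likelihood test, genotype as the only term, Benjamini-Hochberg adjustment over 20312 genes). TMM factors were 0.88 and 1.02 in nexn+/+ and 1.07 and 1.04 in nexn−/− libraries. Nothing says how separate the labelled biological replicates were beyond their pools, so p-values measure the spread between these libraries. Replicates of a genotype were not the same library (chi-square over degrees of freedom 52.2 and 5.80 over all tested genes). Alternatives were DESeq2 1.42.0, limma-voom (limma 3.58.1), other scalings, filters and offsets, the replicate number as a block, and each library left out.

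Genes named were all called members, the 3 highest and lowest by TPM of each subunit, rpl13, pairs with a called copy and the role groups. Pairs ending in a and b were formed only where both exist. Members, lists and tests were chosen with earlier results of these data known. No list was tested as a set, and start sites were not analysed here. A few genes that these rules would name are not reported here. Library depth was about 20 counts per CPM.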

Additional observations from a re-analysis of the deposited data

How the results depend on the processing

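Calls depended on the scaling and the filter more than on the tool. DESeq2 and limma-voom called the same 8 genes lower as edgeR (all genes 13.4% and 14.0%, against 13.9% by edgeR). Large subunit genes called lower went from 4 to 1 with library size alone, the upper quartile, a minimum mean of 10 CPM, or scaling to the summed members or to rpl13, and small subunit genes from 4 to 0, 2, 0, 0 and 0. Of all tested genes 9.25%, 10.9%, 14.5%, 6.03% and 7.22% were called lower in these 5 settings, against 13.9% in the main TMM fit. In each of them 1 gene with a large subunit name, rpl7l1, was called higher. The shares of all genes called higher were 21.7%, 20.1%, 17.8%, 28.9% and 25.0%. Without a fold limit rpl7l1 was again the 1 member called higher (all genes 17.8%). The median log2(FC) was −0.18 (library size alone) and −0.19 (minimum of 10 CPM) for either subunit. For the large subunit it was −0.014 scaled to the members and −0.098 scaled to rpl13, and for the small subunit −0.0094 and −0.094. Scaling to the summed members brings the medians near 0 by construction. With the members as scale rpl13 itself turned to 0.085. With each library left out, calls ranged from 0 to 16 (large) and 0 to 12 (small) and medians from −0.43 to −0.22 and −0.41 to −0.26, where the lone library is assumed to vary like the other group. As shares of TPM the differences were −1.50 (large) and −1.23 (small) percentage points. By counts, the log2 ratio of the subunits differed by 0.027 and the shares of rpl37 and rpl7 by −0.22 and −1.28 points. The causes were not tested, beyond what each setting changes. Under alternatives 115 values of these comparisons moved by less than the spread between replicates or, for counts, by at most 1.5 times. The large subunit medians with library size alone and with a minimum of 10 CPM are among these.

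No label says that a replicate number marks a shared day or batch, and the deviations of same-numbered libraries were uncorrelated (r = −0.019 over 20312 genes, 2 pairs). With the replicate block, 2 large and 2 small subunit genes were called lower (rplp2, rpl37, rps25 and rps26), where 13.5% of all tested genes were. The planned description of start site motifs was not run. The members had 124 to 89597 counts per library, and each group had 2 libraries.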

Other observations

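Genes of the mitochondrial ribosome and of mTOR signalling were read in the same fit, in which 16.7% of all tested genes were called higher and 13.9% lower. Of 74 mitochondrial ribosomal protein genes, 0 were called higher and 1 lower by edgeR's quasi-likelihood test, mrpl33 (log2(FC) −0.70, adjusted p = 0.0148), and their median was −0.01.

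Of 19 mTOR pathway genes, 1 was called higher and 2 lower, at or below the shares of all genes. The S6 kinase gene rps6kb1a was at 6.29 and 2.97 CPM against 13.5 and 14.7 (1.62, adjusted p = 0.00999), rheb, the activator of mTOR complex 1, at 42.0 and 40.9 against 15.6 and 16.8 (−1.35, adjusted p = 0.00106). The gene rictora, of mTOR complex 2, had a log2(FC) of −0.85 (adjusted p = 0.0029). For larp1, a binder of pyrimidine tract mRNAs, the groups overlapped (−0.01, adjusted p = 0.951). Of 19 cytosolic aminoacyl-tRNA synthetase genes 1 was called higher, lars1a (1.14), at 1.81 and 1.61 against 4.04 and 3.50 CPM. Of 30 cell division genes 1 was called lower, nusap1 (−0.52), which was not called with library size alone (−0.38, adjusted p = 0.147). Against the same shares of all genes, 25 of 55 muscle myosin, tropomyosin and troponin genes were called higher and 1 lower. Their summed CPM overlapped, however, at 87435 and 39732 in nexn+/+ against 50644 and 54696 in nexn−/− libraries.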
